A study of Mus musculus with 32 samples.

Results

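CH12F3, a mouse B lymphoma line that can switch its antibody class from IgM to IgA in culture, was compared at day 7 and day 1.5 of stimulation. Of the 32 libraries of the series, 16 were from CH12F3, and 8 were taken here: every day 7 library (4) and the 4 day 1.5 libraries whose numbers in the labels belong to the same series (called the second). The labels give all 8 the same treatment, an antibody to CD40 with IL-4 and TGF-beta, and all 8 come from cells whose own Elof1 gene was knocked out. At each day 2 libraries carried an empty vector (labelled Elof1-KO +Vector, called vector here) and 2 carried an ELOF1 construct (labelled Elof1-KO +ELOF1, called ELOF1). The labels do not say whether the knockout is 1 clone, nor whether the libraries came from separate cultures. The p-values therefore rest on the spread between these libraries, which may be technical. The first series was left out because it held day 1.5 libraries only. Total RNA was depleted of ribosomal RNA and made into strand-specific libraries, and each sample received poly(A) RNA of fly S2 cells in proportion to its cell number.

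In a stimulated B cell, CD40 signals through NF-kB, IL-4 through STAT6 and TGF-beta through SMAD proteins. Together they switch on germline transcription of the constant region genes and class switch recombination, in which breaks in switch regions are joined so that the constant gene for IgM (Ighm) can be replaced by that for IgA (Igha). Activation is also known to raise immediate-early transcription factors within hours and to shift metabolism towards glycolysis, which HIF-1 drives when oxygen or iron is short. The comparison asks which of these programs differ between an early and a late time of the same stimulation.

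Expression is given as CPM, read counts brought to a common library size by TMM scaling, in the order vector pair 1, vector pair 2, ELOF1 pair 1, ELOF1 pair 2. A pair joins 1 day 1.5 library to 1 day 7 library of the same genotype: replicate 3 with replicate 1 (pair 1), and replicate 4 with replicate 2 (pair 2). The fitted pair term has 2 levels, so vector and ELOF1 libraries of the same pair number share a level. The p-values of a fit with this term use only the spread left after genotype and pair are taken into account. The labels do not tie these replicates, and the pairing rests on earlier results of the same data. Fold changes are log2, day 7 over day 1.5, with the standard error (SE), and a gene was called at an edgeR adjusted p below 0.05 in a fit with terms for genotype and pair. Mouse totals were 10716722 to 15550229 counts per library. The first principal component (36.6% of the variance) separated the pairs and the second (19.2%) the days. Elof1 went with its labels, at 0.946 to 3.45 CPM in the 4 vector libraries and 155 to 385 CPM in the 4 ELOF1 libraries. It did not differ detectably between the days (-0.06 ± 0.21, edgeR adjusted p = 0.88). The fly RNA gave a log2 ratio of fly to mouse counts of -5.22 ± 0.19 at day 1.5 and -5.26 ± 0.08 at day 7 (SD, n = 4 each), a difference of -0.04 (exact 2-sided permutation p = 0.714). The share of mitochondrial ribosomal RNA was 0.395% ± 0.133 at day 1.5 and 0.406% ± 0.0275 at day 7 (SD, n = 4 each; exact permutation p = 0.943).

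**Figure D1:**
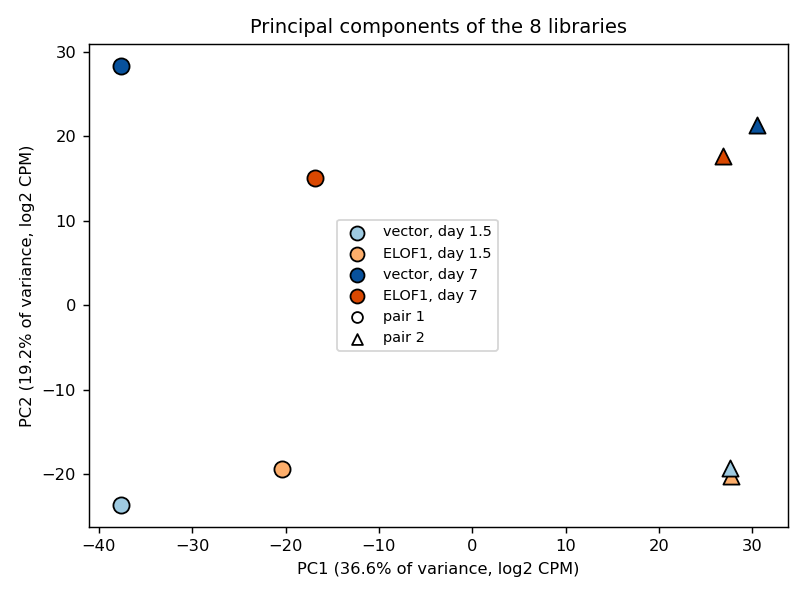
Each point is 1 library, placed by the first 2 principal components of log2 CPM over the tested genes, with colour for genotype and day and shape for pair. Pair 1 lies left and pair 2 right on the first component, and the 4 day 7 libraries lie above the 4 day 1.5 libraries on the second.

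With the pair term, 1836 of 13219 tested genes differed between the days (13.9%), 885 higher at day 7 (6.69%) and 951 lower (7.19%). Without the pair term only 236 were called (1.79%), 84 higher (0.635%) and 152 lower (1.15%), and all 236 were among the 1836. How many genes are called therefore rests on a pairing that the labels do not state. At an unadjusted p under 0.05 there were 3752 genes with the term and 2146 without it. The counts also fell without day 1.5 replicate 4 of either genotype, to 1134 without that of ELOF1 and to 1126 without that of vector. Changes were mostly small: 170 called genes (1.29%) moved 2-fold or more, 76 higher and 94 lower. The 4 day 7 values lay wholly above or below the 4 day 1.5 values in 1247 genes (9.43%). The direction was the same in all 4 pairs for 4939 of the 13219 tested genes. Of the higher genes 95.8% and of the lower genes 93.2% were protein coding, against 85.7% of all tested genes. The called genes were also more highly expressed, with a median day 1.5 level of 83.2 CPM (higher) and 44.7 CPM (lower), against 26.6 CPM for all tested genes. Whether the protein coding share follows from this was not tested. The lower genes had a median span of 28.4 kb and the higher ones 18.5 kb, against 18.1 kb for all tested genes.

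The largest rise was in Otogl, which encodes the inner ear matrix protein otogelin-like (chromosome 10, 107762223 to 107912134, minus strand, mm10). It stood at 0.0942, 0.947, 0.771 and 1.23 CPM at day 1.5 and 24.4, 42.3, 15.9 and 31.9 CPM at day 7 (5.16 ± 0.22, edgeR adjusted p = 2.14e-09). The lowest of the day 1.5 values was 1 count in its library, while the 4 day 7 libraries held 199 to 648 counts. The cytokine gene Il6 rose in all 4 pairs, from 1.13, 3.38, 1.23 and 0.454 CPM at day 1.5 to 8.60, 7.31, 8.25 and 7.60 CPM at day 7 (2.37 ± 0.33, edgeR adjusted p = 0.000197). No day 7 value of Il6 lay under 7 CPM and none of day 1.5 above 4 CPM. Adgre1, which encodes the macrophage surface receptor F4/80 (chromosome 17, 57358686 to 57483529, plus strand), stood at 21.7, 64.8, 19.8 and 31.1 CPM at day 1.5 and 111, 187, 93.2 and 129 CPM at day 7 (1.99 ± 0.12, edgeR adjusted p = 9.53e-08). The pair 2 libraries were higher than those of pair 1 at each day, and the days did not overlap.

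Mapk10, the gene of the stress kinase JNK3, rose from 5.18, 6.96, 7.25 and 6.10 CPM at day 1.5 to 16.3, 21.5, 21.5 and 22.6 CPM at day 7 (1.68 ± 0.13, edgeR adjusted p = 6.1e-07), a tight rise in both genotypes. Lrig1, a membrane brake on growth factor receptors, rose from 0.753, 1.35, 1.23 and 2.27 CPM at day 1.5 to 2.93, 4.96, 12.1 and 8.93 CPM at day 7 (2.32 ± 0.27, edgeR adjusted p = 3.64e-05), with the ELOF1 libraries highest at day 7. The other genes among the 12 largest rises were the potassium channel gene Kcnj15 (2.67), the Wnt regulator gene Dact1 (2.27), Fam107a (2.20), and Smarcd3, a subunit of SWI/SNF chromatin remodellers (1.97). Aqp9, a channel for water and glycerol (1.92), Ms4a6c, a membrane protein of the MS4A family (1.90), and Mfhas1 (1.68) completed them. When the pair term was dropped, Kcnj15 (adjusted p = 0.0808), Fam107a (0.0715) and Smarcd3 (0.0905) lost their calls in edgeR and the other 9 kept them.

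The largest fall by this ranking was in Wnt10a, which encodes a Wnt ligand (chromosome 1, 74791516 to 74804179, plus strand). It went from 20.5, 15.1, 33.5 and 20.8 CPM at day 1.5 to 1.38, 1.17, 8.25 and 2.12 CPM at day 7 (-2.93 ± 0.24, edgeR adjusted p = 1.44e-06), and the ELOF1 library of pair 1 was the highest at both days. Egr2, an immediate-early zinc finger factor (chromosome 10, 67535475 to 67542188, plus strand), fell from 32.3, 33.3, 22.2 and 16.7 CPM at day 1.5 to 7.05, 3.07, 5.92 and 4.07 CPM at day 7 (-2.39 ± 0.19, edgeR adjusted p = 7.4e-07), without overlap. Tnf, the inflammatory cytokine gene that NF-kB induces (chromosome 17, 35199381 to 35202007, minus strand), fell from 77.5, 73.7, 52.2 and 58.3 CPM at day 1.5 to 18.2, 27.99, 16.5 and 23.6 CPM at day 7 (-1.60 ± 0.10, edgeR adjusted p = 1.03e-07). Every day 7 library held less Tnf than the lowest day 1.5 library. Mcoln2, a cation channel of endolysosomes, fell from 3.58, 5.82, 6.63 and 6.56 CPM at day 1.5 to 0.602, 0.914, 1.44 and 1.96 CPM at day 7 (-2.23 ± 0.24, edgeR adjusted p = 2.31e-05), and Flt3, a growth factor receptor of early blood cells, from 9.23, 13.8, 7.71 and 6.10 CPM at day 1.5 to 2.58, 4.96, 3.12 and 2.59 CPM at day 7 (-1.45 ± 0.21, edgeR adjusted p = 0.000231). The phosphatase gene Dusp8 (-1.81), the oxidative stress gene Osgin1 (-1.43) and Bnip3, described with the hypoxia genes, also fell with and without the pair term. Tpd52 (-1.67), Hivep2 (-1.65), Mctp2 (-1.44) and the chloride transporter gene Slc12a5 (-1.36) were called with the pair term only. Their edgeR adjusted p-values without it were 0.0795, 0.138, 0.0715 and 0.0565.

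**Figure D2:**
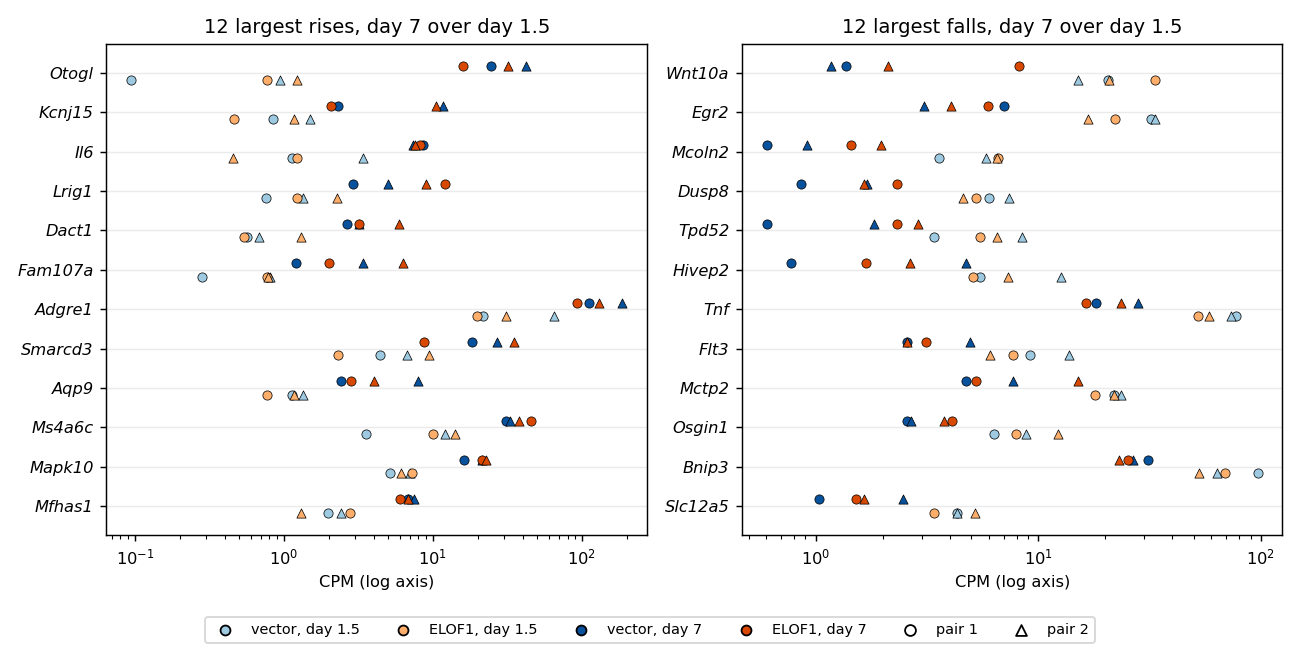
CPM on a log axis for the 12 largest rises (left) and 12 largest falls (right) among called genes, 1 point per library, with day 1.5 below and day 7 above the line of each gene. Otogl has the widest gap between the days, and the days overlap in Smarcd3. The genes were chosen for a large change with 1 direction in all pairs, so the gaps describe that choice.

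Of 13197 pairs of neighbouring tested genes, 343 were both called, and 244 of these (71.1%) moved in the same direction. Of all tested genes 13.9% were called, 48.2% of them higher. Histone genes and neighbours that overlap, such as Pappa2 with 1600012P17Rik and Klhl14 with 4930426D05Rik, were not set apart. Whether the 71.1% exceeds what these give was not tested. In 12 pairs both genes moved 2-fold or more in the same direction. The longest run was on chromosome 19 (mm10), where Ms4a4c (11404770 to 11427246, 2.45), Ms4a6c (11469366 to 11482192, 1.90), Gm8369 (11485938 to 11512577, 2.59) and Ms4a6b (11516512 to 11531256, 1.87) all rose. These are members or neighbours of 1 gene family, so reads shared between similar copies could be split among them. The lysosomal channel genes Mcoln3 (-1.40) and Mcoln2 (-2.23) lie side by side on chromosome 3 and fell together. Phlda3, a p53 target (1.15), and its neighbour Tnni1 (1.18) rose on chromosome 1. The run and the pairs were singled out after their values were seen.

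The genes of the hypoxia response and of glycolysis were lower at day 7. Of 18 tested hypoxia genes 11 fell and none rose, with a median of -0.44, and of 22 glycolysis genes 17 fell and 1 rose, with a median of -0.31. The median of all tested genes was -0.00089, with 7.19% called lower and 6.69% higher. In a fit with no pair term 8 hypoxia genes and 6 glycolysis genes were called lower and none higher. That fit called 1.15% of all tested genes lower and 0.635% higher. With libraries scaled by the fly RNA 11 and 15 fell and none rose, with medians of -0.42 and -0.29. All 18 hypoxia genes had a negative fold change. Leaving out any 1 library moved neither count, nor that of the immediate-early, stimulus, cholesterol and histone lists described next, by more than 1.5 times.

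Bnip3 and Bnip3l encode mitophagy receptors that HIF-1 induces. Bnip3 (chromosome 7, 138890836 to 138909519, minus strand) fell from 97.1, 63.5, 68.9 and 52.9 CPM at day 1.5 to 31.3, 26.6, 25.5 and 23.0 CPM at day 7 (-1.38 ± 0.08, edgeR adjusted p = 3.31e-08), and Bnip3l (chromosome 14, 66985239 to 67008877, minus strand) from 292, 252, 232 and 203 CPM at day 1.5 to 144, 128, 115 and 108 CPM at day 7 (-0.98 ± 0.05, edgeR adjusted p = 9.92e-09). In both genes the vector library of pair 1 was the highest at each day, and the days did not overlap. Other falls were in Ero1l, an oxidase of the endoplasmic reticulum (426 ± 44.3 to 239 ± 13.0 CPM, -0.83), the collagen prolyl hydroxylase genes P4ha2 (-0.89) and P4ha1 (-0.56), Ankrd37 (-0.91) and Vegfa, the angiogenic factor (-0.46). Egln1, the oxygen sensor that marks HIF-1 for destruction, went from 74.9 ± 7.21 to 56.0 ± 4.92 CPM (-0.41). Hif1a itself was 114 ± 19.9 to 109 ± 11.4 CPM (-0.06; SD, n = 4 each) and was not called. Ndrg1 (-0.97) was called with the pair term only (edgeR adjusted p = 0.218 without it).

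Along the glycolytic chain the falls ran from uptake to lactate. The glucose transporter genes Slc2a3 (-0.44) and Slc2a1 (-0.29), the hexokinase genes Hk1 (-0.52) and Hk2 (-0.27) and the phosphofructokinase genes Pfkl and Pfkp (-0.31) were lower. So were Gpi1 (-0.21), Aldoa (-0.47), Tpi1 (-0.51), Gapdh (-0.22), Pgam1 (-0.27), Eno1 (-0.34), Pkm (-0.37) and Ldha, which makes lactate (-0.31). Pgk1, phosphoglycerate kinase (chromosome X, 106187100 to 106203699, plus strand), fell from 906, 738, 720.5 and 657 CPM at day 1.5 to 506, 474, 439.8 and 435 CPM at day 7 (-0.69 ± 0.05, edgeR adjusted p = 5.21e-07). Pdk1, which keeps pyruvate out of the mitochondrion (chromosome 2, 71873224 to 71903858, plus strand), fell from 99.1, 97.4, 94.0 and 102 CPM at day 1.5 to 53.8, 54.6, 68.6 and 68.7 CPM at day 7 (-0.68 ± 0.07, edgeR adjusted p = 1.42e-05), and Pfkl from 483, 382, 333 and 337 CPM at day 1.5 to 294, 241, 255 and 243 CPM at day 7 (-0.56 ± 0.07, edgeR adjusted p = 5.02e-05). In all 3 the groups were apart, and the calls held without the pair term. Of the lactate transporters Slc16a3 fell (-0.35) while Slc16a1 rose (0.21). Eno2, Pfkm, Pfkfb3 and Pfkfb4 were not called, at 0.01, -0.12, -0.10 and 0.18.

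The hypoxia response element that HIF-1 binds has the core ACGTG. Bases of the promoters of 3 of these genes are shown because they differ in whether they hold that core. Each is the window of 250 bases before the RefSeq start (GRCm38.p6), 5′ to 3′ on the strand of the gene, with capitals for each match on either strand. The windows are chr7:138909507-138909756, minus strand (Bnip3), chrX:106186850-106187099, plus strand (Pgk1), and chr2:71872974-71873223, plus strand (Pdk1).
Bnip3: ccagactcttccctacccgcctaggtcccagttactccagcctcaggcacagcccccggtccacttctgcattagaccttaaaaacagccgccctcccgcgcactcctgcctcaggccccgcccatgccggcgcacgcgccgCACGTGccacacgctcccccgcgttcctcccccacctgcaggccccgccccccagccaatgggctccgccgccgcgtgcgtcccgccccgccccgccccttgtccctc
Pgk1: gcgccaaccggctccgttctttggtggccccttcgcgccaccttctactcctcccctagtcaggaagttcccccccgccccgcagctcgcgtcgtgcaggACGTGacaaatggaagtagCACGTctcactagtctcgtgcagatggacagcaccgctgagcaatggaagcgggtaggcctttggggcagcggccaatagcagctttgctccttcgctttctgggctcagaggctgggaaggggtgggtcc
Pdk1: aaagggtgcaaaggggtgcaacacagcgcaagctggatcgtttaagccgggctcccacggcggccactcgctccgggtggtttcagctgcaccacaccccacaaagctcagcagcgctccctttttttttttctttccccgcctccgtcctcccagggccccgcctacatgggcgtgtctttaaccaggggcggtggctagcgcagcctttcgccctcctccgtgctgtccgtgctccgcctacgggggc

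In Bnip3 the 2 matches, 108 and 107 bases before the start, are the 2 strands of 1 palindrome, while Pgk1 has separate matches 150 and 131 bases before its start. Pdk1 has none in this window, though its fall was of the size of that of Pgk1. The core was in 6 of 9 windows of the fallen hypoxia genes (66.7%) and 9 of 24 of the fallen glycolysis genes (37.5%), against 16.6% of all 32851 RefSeq windows. Among all tested members the shares were 11 of 19 (57.9%) and 14 of 33 (42.4%), so they went with list membership as much as with the fall. The windows printed were chosen after 11 gene and motif combinations had been looked at. Of the 8 with a window, 3 held their motif in it (Bnip3, Pgk1 and Hmgcs1), and Pdk1, Pfkl, Tnf (for 2 motifs) and Egr2 did not. Bnip3l, Hist4h4 and Igha were named only.

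**Figure D3:**
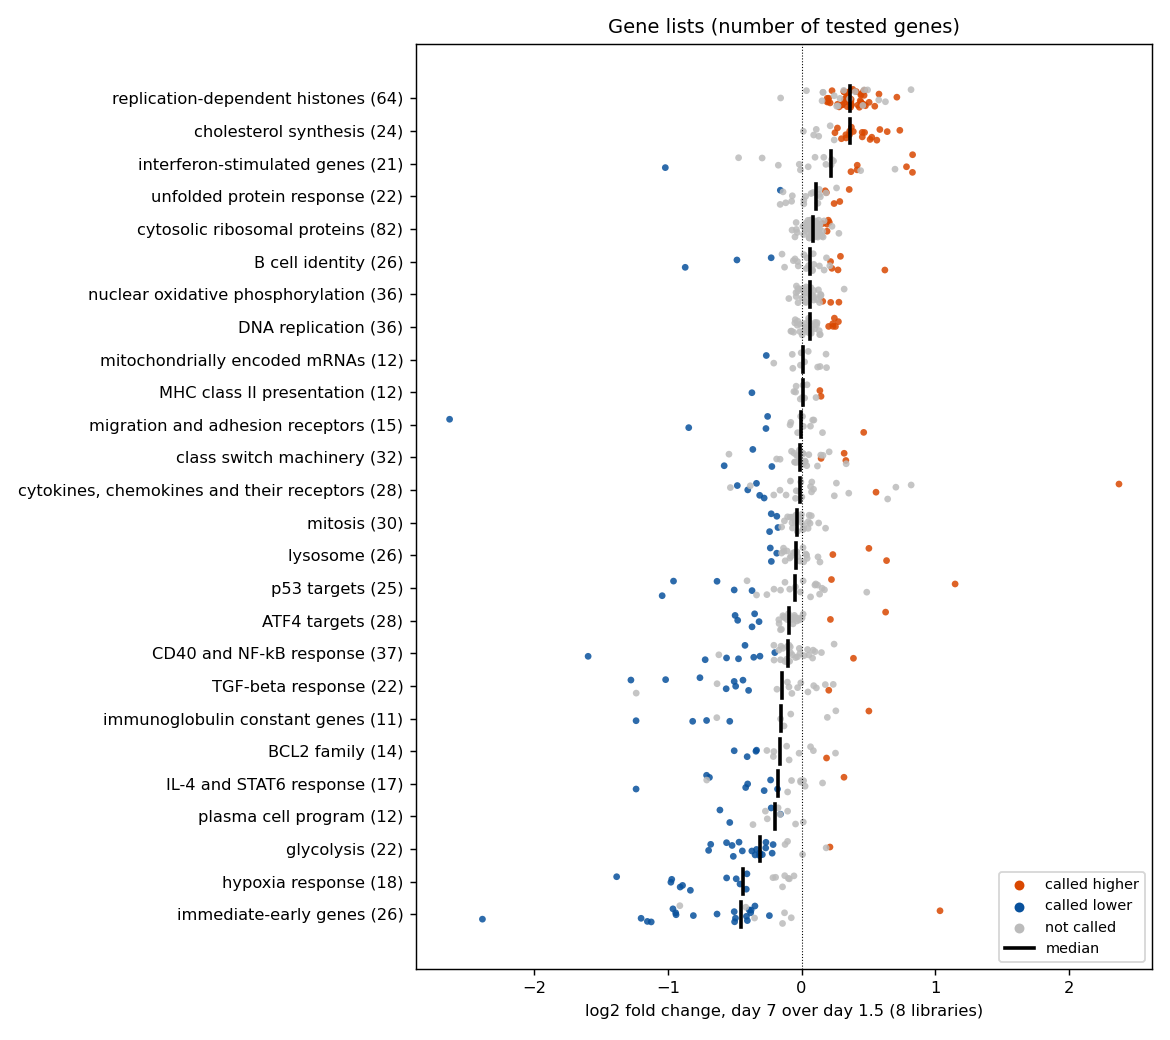
Log2 fold change at day 7 over day 1.5 of each tested gene (points) in the gene lists with 10 or more tested genes, in order of their medians (bars). Immediate-early, hypoxia and glycolysis genes lie lowest, with medians of -0.46, -0.44 and -0.31, and cholesterol synthesis and histone genes highest, both at 0.36.

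Immediate-early genes made up the list with the lowest median. Of 26 tested genes 19 fell and 1 rose, with a median of -0.46, and 8 fell and none rose without the pair term. Among all tested genes 7.19% fell and 6.69% rose, or 1.15% and 0.635% without the pair term. Besides Egr2, the AP-1 gene Fosl2 fell from 6.22, 6.96, 5.94 and 6.30 CPM at day 1.5 to 3.61, 2.61, 2.96 and 2.35 CPM at day 7 (-1.15 ± 0.19, edgeR adjusted p = 0.00064), without overlap. The transcription factor gene Klf6 fell from 42.3 ± 6.81 to 19.5 ± 4.49 CPM (SD, n = 4 each, log2 change -1.12), and Nr4a1, an orphan receptor that antigen receptor signals induce, from 15.7 ± 4.52 to 8.07 ± 1.66 CPM (-0.94). The MAP kinase phosphatase genes Dusp2 (-0.96) and Dusp5 (-0.94), Zfp36, which encodes an mRNA decay factor (-0.81), and Junb (-0.50) were lower too. Fosb was the 1 that rose (1.04). Myc (-0.14), Jun (-0.13), Fos (-0.35) and Srf (-0.08) were not called. Egr1 was called (-1.20 ± 0.31, edgeR adjusted p = 0.0187), but its libraries differed by the pair far more than by the day, at 2.73, 50.2, 11.5 and 30.8 CPM at day 1.5 and 2.24, 15.3, 7.29 and 13.4 CPM at day 7. Its call was lost without the pair term (adjusted p = 0.449), in DESeq2 (0.277), with robust dispersions (0.268), and without vector day 1.5 replicate 4 (0.206), ELOF1 day 7 replicate 2 (0.108) or ELOF1 day 1.5 replicate 3 (0.089).

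The called genes of the 3 lists that answer the stimuli were nearly all lower at day 7. Called shares were 40.9% (TGF-beta), 52.9% (IL-4 and STAT6) and 24.3% (CD40 and NF-kB), against 13.9% of all tested genes. In the TGF-beta list 8 of 22 fell and 1 rose (median -0.14), in the IL-4 and STAT6 list 8 of 17 fell and 1 rose (-0.18), and in the CD40 and NF-kB list 8 of 37 fell and 1 rose (-0.10). With no pair term these became 4, 1 and 2 falls, with no rise, against 1.15% of all tested genes lower and 0.635% higher. With fly scaling the medians were -0.13, -0.16 and -0.09, and in the TGF-beta list the 1 rise was lost.

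For TGF-beta, the falls were in feedback inhibitors and targets. Skil, a SMAD co-repressor that the pathway induces (chromosome 3, 31095058 to 31122577, plus strand), fell from 87.7, 87.9, 91.7 and 83.0 CPM at day 1.5 to 54.8, 54.6, 53.9 and 43.6 CPM at day 7 (-0.76 ± 0.07, edgeR adjusted p = 2.77e-06). Klf10, an early target of the pathway, fell from 7.91, 7.51, 7.79 and 4.35 CPM at day 1.5 to 3.36, 2.81, 3.20 and 1.96 CPM at day 7 (-1.28 ± 0.19, edgeR adjusted p = 0.000344), and Id2, an inhibitor of E proteins, from 38.7, 74.4, 50.5 and 69.8 CPM at day 1.5 to 21.2, 38.2, 25.2 and 29.7 CPM at day 7 (-1.02 ± 0.10, edgeR adjusted p = 7.89e-06). Id2 was called with the pair term only (adjusted p = 0.0728 without it). Tgif1 (-0.50), Smad7, which blocks the receptor (-0.40), Id3 (-0.49) and Runx3, a factor for Igha germline transcription (-0.44), fell. The receptors and signal carriers Tgfbr1 (-0.03), Tgfbr2 (-0.09), Smad2 (0.18), Smad3 (0.05) and Smad4 (-0.01) were not called. Tgfb1, the ligand gene, rose by 0.20.

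For IL-4, the receptor gene Il4ra rose (83.7 ± 19.2 to 104 ± 24.0 CPM, 0.32) and Stat6 fell (174 ± 25.9 to 153 ± 21.6 CPM, -0.18). The STAT feedback gene Socs1 (-0.42), the enzyme gene Il4i1 (-0.40) and the chemokine gene Ccl22 (-0.23) fell. Fcer2a, the low-affinity IgE receptor, was at 97.0, 189, 36.5 and 67.0 CPM at day 1.5 and 36.5, 107, 26.7 and 63.8 CPM at day 7 (-0.69 ± 0.14, edgeR adjusted p = 0.00327), with overlapping days and no call without the pair term (adjusted p = 0.526) or with robust dispersions (0.141). For CD40, Tnf led the falls, followed by Ltb, a TNF family ligand (from 56.8, 68.6, 73.4 and 74.3 CPM at day 1.5 to 35.4, 50.4, 33.0 and 47.5 CPM at day 7; -0.72 ± 0.09, edgeR adjusted p = 7.28e-05), the adaptor gene Traf1 (-0.56), Cd83 (-0.47) and Icam1 (-0.42). Ltb and Traf1 lost their calls without the pair term (adjusted p = 0.0563 and 0.319). The NF-kB subunit genes Rela (0.04), Relb (-0.07), Rel (-0.12), Nfkb1 (0.10) and Nfkb2 (-0.08) were not called, nor was Cd40 (-0.10). Cd70, the ligand of CD27, rose by 0.39.

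Among the constant region genes Igha rose while Ighm, Ighg1 and Ighe fell. Igha (chromosome 12, 113254830 to 113260236, minus strand) was at 1512, 1516, 1687 and 1904 CPM at day 1.5 and 1644, 1844, 3105 and 3135 CPM at day 7 (0.50 ± 0.09, edgeR adjusted p = 0.0014). It rose in all 4 pairs, the 2 ELOF1 libraries of day 7 stood far above all others, and the days overlapped. Fitted by genotype, Igha was called in ELOF1 libraries (0.80, edgeR adjusted p = 2.42e-05) and not in vector libraries (0.20, edgeR adjusted p = 0.105). Without the pair term its adjusted p was 0.0715, and with robust dispersions 0.0716. Ighm (chromosome 12, 113418558 to 113422730, minus strand) was at 2411, 2218, 3003 and 1719.9 CPM at day 1.5 and 2252, 1576, 1656 and 437 CPM at day 7 (-0.81 ± 0.22, edgeR adjusted p = 0.021), and the ELOF1 library of pair 2 at day 7 was the lowest by far. Its call was lost without the pair term (adjusted p = 0.398), in DESeq2 (0.186), with robust dispersions (0.296), and without ELOF1 day 1.5 replicate 3 (0.109) or replicate 4 (0.0676). Ighg1, which IL-4 induces, fell from 15.3, 18.1, 7.01 and 5.06 CPM at day 1.5 to 7.31, 6.66, 3.84 and 1.49 CPM at day 7 (-1.24 ± 0.19, edgeR adjusted p = 0.000435) with and without the pair term, and lay higher in the vector than in the ELOF1 libraries at each day. Ighe was at 13.6, 12.7, 3.70 and 4.48 CPM at day 1.5 and 10.4, 9.20, 1.84 and 1.49 CPM at day 7 (-0.71 ± 0.18, edgeR adjusted p = 0.0175), called with the pair term only (adjusted p = 0.106 without it) and not without ELOF1 day 1.5 replicate 4 (0.057). Without ELOF1 day 1.5 replicate 3 or 4 the list of 11 constant region and joining chain genes had 1 rise and 2 falls, against 1 and 4 with all libraries. The main fit called 45.5% of this list and 13.9% of all tested genes. Igkc, the light chain gene, was 828 ± 239 to 742 ± 208.3 CPM (SD, n = 4 each) and was not called (-0.16).

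The log2 ratio of Igha to Ighm counts, where Igha counts can include germline transcripts of unswitched cells, was -0.67, -0.55, -0.83 and 0.15 at day 1.5. At day 7 it was -0.45, 0.23, 0.91 and 2.84. The mean rose from -0.48 ± 0.43 to 0.88 ± 1.42 (SD, n = 4 each), by 1.36 (exact 2-sided permutation p = 0.0571, 0.171 adjusted over 3 single values, where 0.0286 is the smallest p the design allows). The ratio was higher at day 7 in all 4 pairs (exact sign permutation within pairs, p = 0.125, the smallest it can give). The difference was 0.50 in the vector libraries and 2.22 in the ELOF1 libraries. Much of the difference rests on 1 library: without ELOF1 day 7 replicate 2 it was 0.70 (exact permutation p = 0.143). Without vector day 7 replicate 1 it was 1.80 (exact permutation p = 0.0286). In bulk RNA a change in the share of switched cells, in germline transcripts of Igha and in RNA per cell cannot be told apart.

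**Figure D4:**
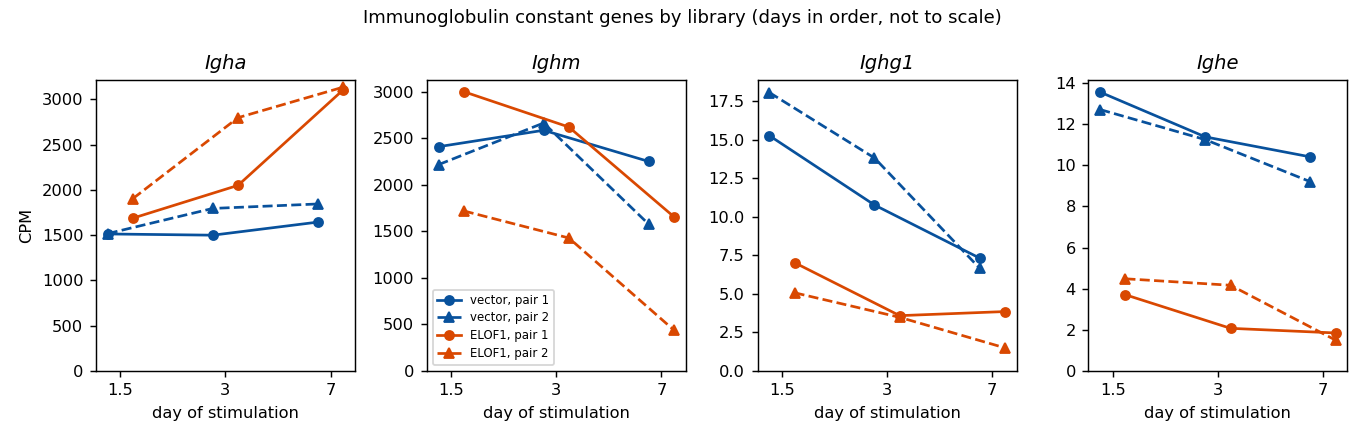
CPM of Igha, Ighm, Ighg1 and Ighe in each second-series library by day of stimulation, with lines joining the libraries of 1 pair and genotype. Igha is highest in the 2 ELOF1 libraries of day 7, at 3105 and 3135 CPM, and Ighm lowest in the ELOF1 library of pair 2, at 437 CPM.

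Of 32 genes of class switching 3 rose and 3 fell, with a median of -0.01, a called share of 18.75% against 13.9% of all tested genes. Without the pair term 1 was called, Mdc1. Mdc1, an adaptor at DNA breaks, fell from 104, 99.9, 91.0 and 101 CPM at day 1.5 to 76.3, 79.0, 72.5 and 78.9 CPM at day 7 (-0.36 ± 0.06, edgeR adjusted p = 0.000462) with and without the pair term. Msh6, of mismatch repair, fell (-0.22), and the base excision gene Apex1 (0.33), the histone gene H2afx (0.32) and Parp1 (0.15) rose, all with the pair term only (Apex1 adjusted p = 0.232 without it). Ung (-0.01), Supt5 (0.03), Trp53bp1 (-0.02) and Rif1 (-0.01) were not called.

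Genes of cholesterol synthesis were higher at day 7. Of 24 tested genes 18 rose and none fell, the median was 0.36, and all 24 fold changes were positive. With no pair term 4 rose, and with fly scaling 18 rose with a median of 0.37. Among all tested genes 6.69% rose and 7.19% fell, or 0.635% and 1.15% without the pair term. Hmgcs1, which starts the mevalonate branch (chromosome 13, 119690462 to 119708086, plus strand), was at 155, 171, 118 and 163 CPM at day 1.5 and 210.9, 288, 171 and 249.8 CPM at day 7 (0.59 ± 0.06, edgeR adjusted p = 1.42e-05). It rose within each pair, the days overlapped, and its adjusted p without the pair term was 0.097. Hsd17b7, a late enzyme of the pathway, rose from 30.3, 34.9, 24.4 and 31.4 CPM at day 1.5 to 49.0, 55.1, 37.3 and 47.2 CPM at day 7 (0.64 ± 0.07, edgeR adjusted p = 2.33e-05) without overlap and in both fits. Nsdhl, which removes a methyl group of the sterol, rose from 11.1, 12.04, 6.86 and 10.3 CPM at day 1.5 to 14.6, 22.1, 12.5 and 17.8 CPM at day 7 (0.74 ± 0.12, edgeR adjusted p = 0.000588), with the pair term only (adjusted p = 0.0973 without it). Sqle, squalene epoxidase, went from 168 ± 14.95 to 239 ± 23.3 CPM (SD, n = 4 each; 0.51), and Mvd from 36.3 ± 4.32 to 53.8 ± 10.7 CPM (0.56). Srebf2, the factor that drives the pathway (0.11), and its retention factor gene Insig1 (0.09) were not called.

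The promoter window of Hmgcs1 (250 bases before the RefSeq start, GRCm38.p6, chr13:119690101-119690350, plus strand) is shown because it holds a match to TCACNCCAC, a form of the sterol regulatory element that SREBP factors bind, marked in capitals.
Hmgcs1: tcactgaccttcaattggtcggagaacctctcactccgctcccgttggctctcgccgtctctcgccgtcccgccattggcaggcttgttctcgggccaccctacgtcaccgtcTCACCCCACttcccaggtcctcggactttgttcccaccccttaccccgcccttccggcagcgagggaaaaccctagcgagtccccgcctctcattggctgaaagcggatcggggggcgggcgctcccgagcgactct

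The match begins 137 bases before the start. The letters were in 1 of 14 windows of the raised cholesterol genes (7.14%) and in 1.05% of all RefSeq windows, counting both strands. This motif was added after the data had been seen. The CCAAT box, bound by NF-Y, was in 11 of the 14 windows (78.6%), in 80% of the 20 windows of all tested cholesterol genes, and in 33.8% of all windows.

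Replication-dependent histone genes, which are transcribed in S phase, also rose: 46 of 64 were called higher and none lower, with a median of 0.36. Without the pair term 6 were called higher, and with fly scaling 41, with a median of 0.38. The share of all tested genes called higher was 6.69%, and 0.635% without the pair term. Histone reads made up 0.870% to 1.12% of mouse counts in the day 1.5 libraries and 1.18% to 1.35% in the day 7 libraries. In the 4 day 1.5 libraries of the first series, which are not in the fit, the share was 1.17% to 1.32%, which overlaps the day 7 range, so the days are apart within the second series only. Hist4h4 (chromosome 6, 136801553 to 136804431, minus strand) rose from 81.4, 66.4, 73.2 and 65.6 CPM at day 1.5 to 132, 114, 109 and 113 CPM at day 7 (0.71 ± 0.06, edgeR adjusted p = 2.23e-06), and Hist2h3b from 94.1, 86.6, 92.5 and 74.8 CPM at day 1.5 to 146, 123, 117 and 121 CPM at day 7 (0.55 ± 0.06, edgeR adjusted p = 2.91e-05). The linker histone gene Hist1h1d rose from 342 ± 41.4 to 482 ± 13.96 CPM (SD, n = 4 each; 0.51). Many of these genes are near-identical copies, so the value of a single gene is uncertain. Most histone mRNAs lack a poly(A) tail and are captured by rRNA depletion.

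Other genes of the cell cycle moved little. Of 36 DNA replication genes 6 rose and none fell (median 0.06). Their called share, 16.7%, was near the 13.9% called among all tested genes (6.69% called higher). The largest rise was in Pola2, a subunit of the primase complex, from 96.2, 96.6, 91.1 and 94.3 CPM at day 1.5 to 116, 116, 116 and 109.9 CPM at day 7 (0.28 ± 0.05, edgeR adjusted p = 0.00205). Pcna (0.20), Fen1 (0.23), Tyms (0.24) and Cdc6 (0.25) were among the others called. Without vector day 1.5 replicate 4 only 3 rose, and Cdc6 lost its call (edgeR adjusted p = 0.09). The helicase genes Mcm2 to Mcm7 were not, at 0.11, -0.01, 0.07, 0.14, 0.05 and 0.07. Of 30 mitosis genes 4 fell (Bub1, Mki67, Cenpe and Aspm) and none rose (median -0.03). Their called share, 13.3%, was no larger than the 13.9% called among all tested genes (7.19% called lower). With fly scaling or without the pair term none was called. With 1 library left out, 1 fell without ELOF1 day 1.5 replicate 4, and 2 fell when another day 1.5 library, ELOF1 day 7 replicate 2 or vector day 7 replicate 1 was the one removed.

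Most B cell identity genes were not called. Of 26 genes 5 rose and 3 fell, with a median of 0.07. Called shares were 30.8% here, 33.3% for plasma cell genes and 25% for MHC class II genes, against 13.9% of all tested genes. Pax5 (63.1 ± 6.46 to 66.6 ± 8.01 CPM) and Cd79b (160.4 ± 23.1 to 154 ± 14.98 CPM) were not called (SD, n = 4 each). Irf8, a factor of B cell and myeloid development (chromosome 8, 120736358 to 120756694, plus strand), fell from 134, 123, 107 and 92.7 CPM at day 1.5 to 57.9, 72.6, 61.6 and 55.2 CPM at day 7 (-0.87 ± 0.08, edgeR adjusted p = 3.97e-06), without overlap. Syk, the kinase next to the antigen receptor (chromosome 13, 52583173 to 52648792, plus strand), rose from 212.8, 262, 249 and 292 CPM at day 1.5 to 301, 431, 392 and 443 CPM at day 7 (0.62 ± 0.06, edgeR adjusted p = 3.1e-06), also without overlap. Both calls held without the pair term. The list had 4 rises and 1 fall without vector day 1.5 replicate 3, vector day 1.5 replicate 4 or vector day 7 replicate 2. Of 12 plasma cell genes 4 fell (Slamf7, Jchain, Pou2af1 and Mzb1) and none rose, and none was called without the pair term. Jchain was also not called in DESeq2 (adjusted p = 0.176) or with robust dispersions (0.272). Only 1 fell without vector day 1.5 replicate 4 or ELOF1 day 7 replicate 2, and 2 without ELOF1 day 1.5 replicate 4 or vector day 7 replicate 1. Xbp1 (144 ± 9.75 to 129 ± 14.5 CPM) and Prdm1 (9.10 ± 5.80 to 8.59 ± 8.35 CPM) were not called. Of 12 MHC class II genes Ciita, the master regulator, fell from 628, 663, 554 and 611 CPM at day 1.5 to 454, 548, 410.1 and 490.1 CPM at day 7 (-0.37 ± 0.05, edgeR adjusted p = 8.81e-05), with an adjusted p of 0.0668 without the pair term. H2-Ab1 (0.14) and H2-Eb1 (0.15) rose. Both of these calls were lost with fly scaling, with all 16 CH12F3 libraries in the fit (0 higher and 1 lower in each) and in 7 of the 8 fits that left out 1 library (all but vector day 7 replicate 2), so that the 2 rises and 1 fall of the list became 1 fall.

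Of 28 genes of cytokines, chemokines and their receptors 2 rose and 5 fell (median -0.01). The called share was 25%, and 33.3% for the migration and adhesion receptors below, against 13.9% of all tested genes. Without the pair term only the 2 rises among the 28 genes were called. These were Il6 and Csf2rb, the shared receptor chain for IL-3, IL-5 and GM-CSF (chromosome 15, 78325990 to 78351000, plus strand), which rose from 325, 349, 266 and 345 CPM at day 1.5 to 467, 513, 399.6 and 508 CPM at day 7 (0.56 ± 0.05, edgeR adjusted p = 7.46e-06). The falls, among them Il6st, the signal chain for IL-6 (-0.48), and Il5ra (-0.31), needed the pair term. Of 15 migration and adhesion receptors Ccr10 (-0.84), Cxcr4 (-0.27), Cd44 (-0.25) and Cxcr3 fell and S1pr1 rose (0.47), none of them without the pair term. Cxcr3 rests on 7 to 18 counts per library at day 1.5 and 0 to 3 at day 7, and its call was also lost without vector day 1.5 replicate 4 (edgeR adjusted p = 0.0521). S1pr1 lost its call without vector day 1.5 replicate 3 (0.0717) or vector day 7 replicate 1 (0.0603).

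Stress and death genes went different ways. Called shares were 28% of p53 targets, 35.7% of BCL2 family genes, 25% of ATF4 targets and 27.3% of unfolded protein response genes. Of all tested genes 13.9% were called. Of 25 p53 targets 5 fell and 2 rose (median -0.05): the cell cycle inhibitor gene Cdkn1a fell from 11.6, 5.82, 7.17 and 4.61 CPM at day 1.5 to 5.51, 2.15, 3.84 and 2.66 CPM at day 7 (-1.04 ± 0.19, edgeR adjusted p = 0.00144) and Phlda3 rose from 4.43, 2.50, 3.62 and 3.31 CPM at day 1.5 to 10.4, 5.61, 7.37 and 7.36 CPM at day 7 (1.15 ± 0.19, edgeR adjusted p = 0.000804). Neither was called without the pair term (adjusted p = 0.194 and 0.059), and Mdm2 was not called in the fit with it (-0.01). Of 14 BCL2 family genes Pmaip1 (-0.50), Bcl2l11 (-0.41), Bcl2l1 (-0.34) and Mcl1 (-0.34) fell and Bcl2 rose (0.19). Without the pair term 2 of the 14 were called, both lower, and Bcl2l11 (adjusted p = 0.272) and Bcl2l1 (0.416) were not. Pmaip1, which encodes the death factor NOXA, fell from 68.8, 71.0, 65.2 and 62.4 CPM at day 1.5 to 46.9, 45.5, 43.3 and 52.5 CPM at day 7 (-0.50 ± 0.07, edgeR adjusted p = 0.000205). Of 28 ATF4 targets 5 fell and 2 rose (median -0.10). Ppp1r15a, which restores translation after stress, fell from 95.6, 96.8, 70.9 and 78.3 CPM at day 1.5 to 66.8, 64.7, 52.0 and 57.6 CPM at day 7 (-0.50 ± 0.06, edgeR adjusted p = 5.03e-05), and Pycr1, of proline synthesis, from 41.7, 42.9, 49.0 and 49.1 CPM at day 1.5 to 32.5, 29.4, 31.5 and 37.6 CPM at day 7 (-0.48 ± 0.07, edgeR adjusted p = 0.000522). Of 22 genes of the unfolded protein response 5 rose and 1 fell (median 0.10), with Dnajb11 (0.29) and Manf (0.24) among the rises and none called without the pair term. The rises were 2 without ELOF1 day 1.5 replicate 4, ELOF1 day 7 replicate 1 or vector day 7 replicate 2 and 3 without vector day 1.5 replicate 4, with no fall.

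Of 21 interferon-stimulated genes 6 rose and 1 fell, with a median of 0.22, and none was called without the pair term. The called share was 33.3%, and 23.1% for the lysosome genes below, against 13.9% of all tested genes. Bst2 went from 52.7 ± 7.91 to 70.8 ± 15.9 CPM (SD, n = 4 each; 0.42). The RNA sensor gene Dhx58 fell from 14.1, 25.6, 12.8 and 21.7 CPM at day 1.5 to 4.99, 13.2, 5.92 and 13.3 CPM at day 7 (-1.02 ± 0.13, edgeR adjusted p = 6.55e-05; adjusted p = 0.227 without the pair term). Of 26 lysosome genes 3 rose, led by Grn, progranulin (0.64), and 3 fell (median -0.04), but 2 and 1 without ELOF1 day 1.5 replicate 4 and 2 and 0 without vector day 1.5 replicate 3. Of 82 cytosolic ribosomal protein genes 5 rose and none fell (median 0.08), and of 36 nuclear genes of oxidative phosphorylation 3 rose and none fell (0.06). The ribosomal calls were lost with fly scaling, both lists gave none without the pair term, and with 1 library left out the ribosomal rises ranged from 1 to 17. The 1 came without vector day 1.5 replicate 4 or vector day 7 replicate 1, and the 17 without ELOF1 day 7 replicate 1. Oxidative phosphorylation had 1 rise when a single day 1.5 library, ELOF1 day 7 replicate 2 or vector day 7 replicate 1 was left out. The called shares of the ribosomal and oxidative phosphorylation lists, 6.10% and 8.33%, were all rises. Among all tested genes 13.9% were called, and 6.69% were called higher. Positive fold changes were found in 77 of 82 and 28 of 36 genes, against 6582 of all 13219 tested genes. Of 12 mitochondrially encoded mRNAs mt-Co1 alone was called, from 6735, 6889.5, 7216 and 6543 CPM at day 1.5 to 5494, 6256, 5543 and 5494 CPM at day 7 (-0.26 ± 0.05, edgeR adjusted p = 0.00288). Its adjusted p was 0.0566 without the pair term and 0.239 with all 16 CH12F3 libraries.

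Most markers of other cells were at or near 0, but not all. Of 12 myeloid markers Adgre1 rose, while Csf1r (35.1 ± 8.77 to 33.8 ± 10.52 CPM) and Cd68 (17.6 ± 3.91 to 17.5 ± 4.10 CPM) were not called (SD, n = 4 each). The other 9, among them Lyz2, S100a8, S100a9 and Ly6g, had at most 9 counts in any library. The summed CPM of the myeloid list was 66.9 to 122 at day 1.5 and 136 to 247 at day 7. Of 12 T and NK cell markers 4 were tested and none called, with a summed CPM of 178 to 209.4 at day 1.5 and 190.1 to 208.7 at day 7, nearly all of it Cd28 and Lck. The 2 tested erythroid and platelet markers and the 4 tested stromal and epithelial markers gave no call, and their sums stayed under 12 CPM.

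Comparing day 7 with day 3 of the same library series, which shares the day 7 libraries, placed these changes in time. In this fit 1594 of 13218 genes were called (12.1%), 917 higher (6.94%) and 677 lower (5.12%), and without the pair term only 8 (0.0605%), 4 in each direction (0.0303%). With fly scaling 2862 were called, 2568 higher and 294 lower, with a median of 0.10 over all genes, so the share of higher calls depends on the scaling. Removing 1 library lowered the count to 923 (ELOF1 day 7 replicate 2), 802 and 808 (ELOF1 day 3 replicates 1 and 2), and 1061 and 915 (vector day 3 replicates 1 and 2).

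Several of the falls were already present at day 3. Tnf was 21.3 ± 2.65 CPM at day 3 and differed by 0.02 at day 7 (edgeR adjusted p = 0.937). Pgk1 was 511 ± 104 CPM (-0.11, adjusted p = 0.279), Pdk1 65.2 ± 5.41 CPM (-0.08, 0.439) and Bnip3l 137 ± 38.3 CPM (-0.11, 0.396). Skil was 54.3 ± 8.58 CPM (-0.05, 0.674) and Id2 29.7 ± 11.2 CPM (-0.01, 0.948). None of these 6 was called between day 3 and day 7, which does not show that they were equal. The glycolysis median between these days was 0.02, with 3 genes higher and 1 lower, against -0.11 for hypoxia (0 and 5) and -0.13 for immediate-early genes (1 and 5).

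Other genes moved between day 3 and day 7. Irf8 was 103 ± 14.7 CPM at day 3 and fell by day 7 (-0.72, edgeR adjusted p = 0.000145). Syk was 249 ± 45.1 CPM and rose (0.66, 2.24e-05), as did Csf2rb (351 ± 50.1 CPM; 0.44, 0.000126) and Adgre1 (55.3 ± 32.0 CPM; 1.33, 1.13e-05). Il6 was 1.82 ± 0.223 CPM (2.13, 1.05e-05), Lrig1 1.40 ± 0.568 CPM (2.31, 0.000202), and Otogl 4.16 ± 3.03 CPM (2.83, 1.98e-06). Histones went on rising, with 30 of 64 called higher between day 3 and day 7 and none lower. Of 28 ATF4 targets 19 were lower and none higher between these days, and of 26 lysosome genes 11 were lower and 2 higher. Of all tested genes 5.12% were lower and 6.94% higher. The list counts between day 3 and day 7 come from the fit with the pair term and TMM scaling. No alternative was run for them. By the rule for named genes the largest rises here were Otogl, Lrig1, Kcnj15, Il6 and Vcam1 (1.53), and the largest falls the metallothionein gene Mt2 (-2.02), Kcnt1 (-1.54), Mcoln2, Chd5 (-1.32) and Wnt10a. Of these 10 only Il6 was called without the pair term. Wnt10a was also not called with all 16 CH12F3 libraries (adjusted p = 0.218) or without ELOF1 day 3 replicate 1 (0.0521), nor Mcoln2 without ELOF1 day 3 replicate 2 (0.0512).

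**Figure D5:**
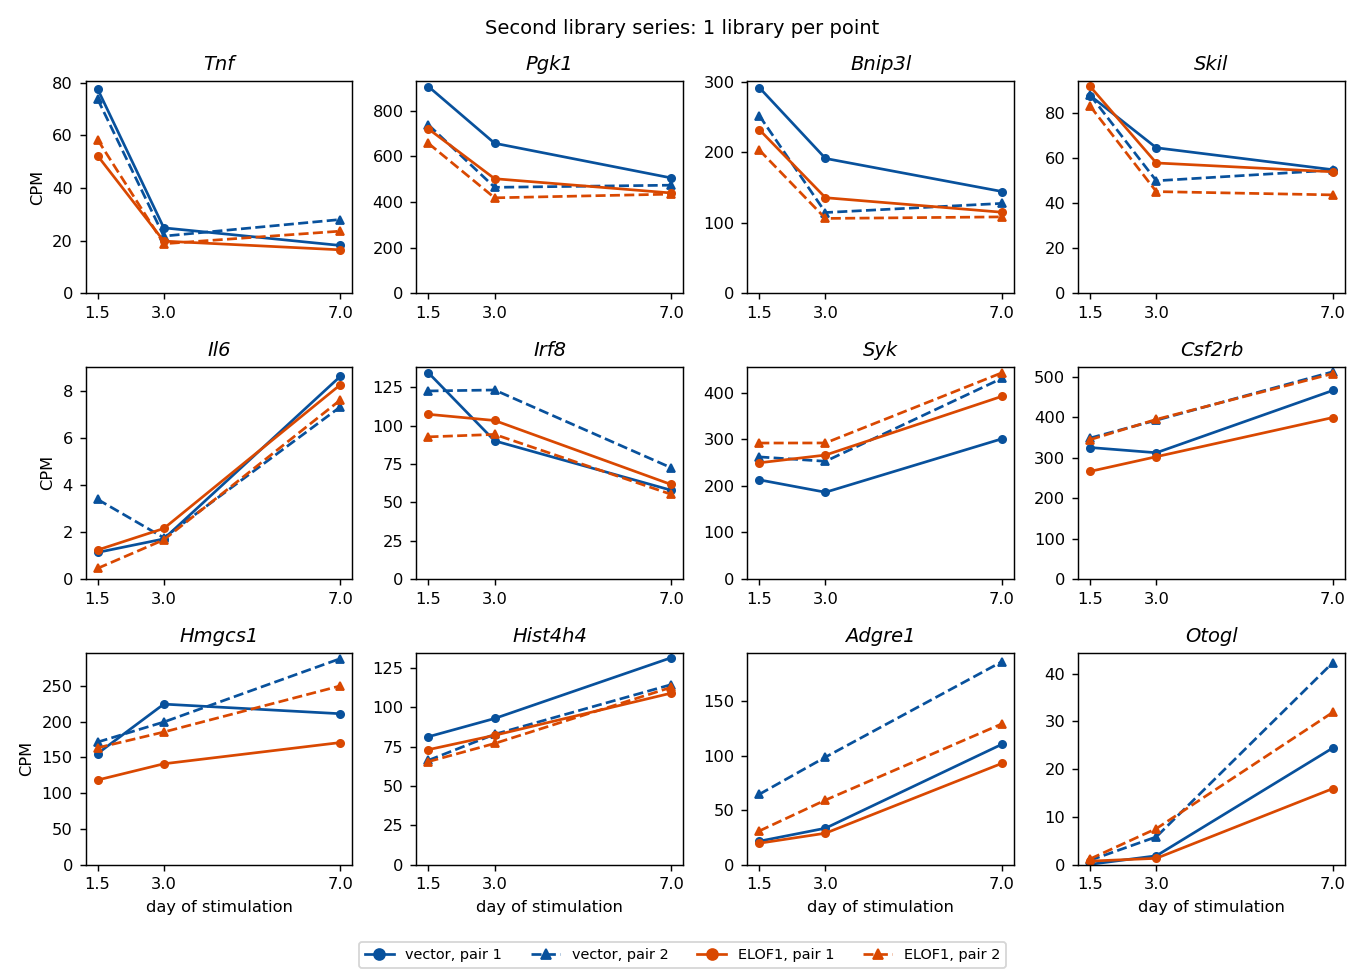
CPM of 12 genes in the second-series libraries at days 1.5, 3 and 7, 1 point per library, with lines joining libraries of 1 pair and genotype. Tnf, Pgk1, Bnip3l and Skil drop by day 3 and differ little after it, apart from vector pair 1 in Pgk1 and Bnip3l, while Syk, Csf2rb, Adgre1 and Otogl rise most between days 3 and 7.

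The day 7 change was also fitted in each genotype. In vector libraries 830 genes were called (6.28%), 316 higher (2.39%) and 514 lower (3.89%). In ELOF1 libraries 487 were called (3.68%), 261 of them lower (1.97%) and the rest higher (1.71%). A fit with no pair term called 1 gene (0.00756%), lower, in vector and 0 in ELOF1 libraries, with 1217 and 871 at an unadjusted p under 0.05. With libraries left out, the vector count fell to 308 or 282 without its day 1.5 replicates 3 or 4 and to 512 without its day 7 replicate 1. The ELOF1 count fell to 87, 82 and 306 without its day 1.5 replicates 3 and 4 and its day 7 replicate 1. Without its day 7 replicate 2 it fell to 101 higher and 111 lower genes. No gene passed edgeR's test of the difference between the genotypes (0% of 13219), with 557 at an unadjusted p under 0.05, and DESeq2 called 2. The median changes had the same sign in both genotypes in the lists that follow: -0.36 and -0.22 for glycolysis in vector and ELOF1 libraries, -0.49 and -0.41 for hypoxia, -0.54 and -0.37 for immediate-early genes, 0.31 and 0.40 for cholesterol synthesis and 0.39 and 0.33 for histones. For the stimulus lists they were -0.29 and -0.04 for IL-4 and STAT6, -0.14 and -0.05 for CD40 and NF-kB and -0.10 and -0.15 for TGF-beta. The difference between genotypes was not tested for lists. Igha had fold changes of 0.20 ± 0.07 in vector (edgeR adjusted p = 0.105) and 0.80 ± 0.07 in ELOF1 libraries (edgeR adjusted p = 2.42e-05). The difference was -0.60 ± 0.10 (edgeR unadjusted p = 2.66e-05, adjusted over all tested genes 0.352). Ighm had -0.33 ± 0.25 in vector and -1.31 ± 0.26 in ELOF1 libraries, with a difference of 0.98 ± 0.36 (edgeR adjusted p = 0.991).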

How the data were processed

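Per the file headers, the authors deposited raw counts of reads per gene as featureCounts writes them, mouse (mm10) and fly (dm6) genes in 1 table. The submitters' processing notes name Bowtie2 and featureCounts; their versions, settings and use of strand are not given in the sources. The table held 43345 mouse genes, 884 without a symbol, and 17509 fly genes, which entered no library size of the main fit. Genes of low count were removed with filterByExpr (minimum count 10), which left 13219 genes holding 99.9% of mouse counts. The median tested gene had 280 to 408 counts per library. edgeR 4.0.16 in R 4.3.3 fitted quasi-likelihood models with TMM scaling (for CPM, over the 12 second-series libraries) and terms for genotype, pair and day. Day 7 was also fitted within each genotype, and p-values were adjusted by Benjamini-Hochberg over all tested genes. The SE is the fold change divided by the square root of the F statistic.

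The pair term joins libraries whose replicate numbers the labels do not tie, and comes from earlier results of these data. Differences between the replicates of a group correlated at 0.404 to 0.571 between all 15 pairs of groups, across 13219 genes. The pairing came from the same data, so these correlations cannot test it. Replicates of the same group did not match within sampling noise: they differed by 12.6 to 23.4 times the counting noise (chi-square per degree of freedom). Single values were compared by exact permutation with NumPy 2.4.6. The fits were also run on simulated counts, with a pair effect common to both genotypes and days and the same dispersion for all genes. Such counts cannot test whether the pair effect is common in the data.

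Members and gene lists were chosen with earlier results of these data known. Genes were picked by a rule, and some of them are given by fold change only or not named. The rule took Elof1, Igha and Ighm, and up to 3 called genes per list with the largest change. It also took the 12 largest rises and 12 largest falls among called genes. These had a mean log2 CPM of 1 or more and 1 direction in all 4 pairs. The 5 largest rises and falls between days 3 and 7 were added. Predicted genes and antibody V, D and J segments were left out. Further called list members were named after their values were seen. Some genes of the lists are counted but not reported here. The alternatives were no pair term, RLE or fly scaling, DESeq2 1.42.0, no filter, robust dispersions, all 16 CH12F3 libraries, and each library left out.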

Additional observations from a re-analysis of the deposited data

Results flagged for a closer look

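Among 206 groups of 4 libraries of 1 day, 10 had 1 library whose gap to the nearest other exceeded Dixon's 95% limit, and chance flags about 1 in 20 groups. At day 1.5, Klf10 was 4.35 CPM in the ELOF1 library of pair 2, against 7.51 to 7.91 CPM in the other 3. Fam107a was 0.283 CPM in the vector library of pair 1, against 0.771 to 0.811 CPM. Vcam1 was 3.77 CPM in that vector library, against 1.01 to 1.39 CPM.

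At day 7 the ELOF1 library of pair 2 stood apart in 3 genes. Skil was 43.6 CPM there, against 53.9 to 54.8 CPM, and Pola2 was 109.9 CPM, against 116 CPM in each of the others. Dact1 was 5.88 CPM there, against 2.67 to 3.20 CPM. Wnt10a was 8.25 CPM in the ELOF1 library of pair 1, against 1.18 to 2.12 CPM in the other day 7 libraries. The vector library of pair 2 was the highest for mt-Co1, at 6256 CPM against 5494 to 5543 CPM, and for Sdhd, at 144.9 CPM against 126.5 to 129.2 CPM. Cycs was 76.9 CPM in the vector library of pair 1, against 60.4 to 61.3 CPM.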

How the results depend on the processing

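The pair term, the replicate block of these fits, moved the counts of calls by day. Without the replicate block 236 genes were called between day 7 and day 1.5, 1 in the vector libraries, 0 in the ELOF1 libraries and 8 between day 7 and day 3. Of 106 results for named genes 38 kept their side of the threshold without it, 68 lost their call, and 37 kept it under every setting run. Fly scaling gave 305 calls in ELOF1 libraries, 2862 between day 7 and day 3 and 3 for the genotype difference. DESeq2 gave 2 for that difference and no filter gave 26, with 1255 in vector and 876 in ELOF1 libraries. With all 16 CH12F3 libraries 1034 genes were called between day 7 and day 3. Leaving out 1 library gave 1126 to 1696 calls between day 7 and day 1.5, 282 to 1020 in vector, 82 to 715 in ELOF1, 802 to 1576 between day 7 and day 3, and 0 to 5 for the genotype difference. The Igha to Ighm difference ranged from 0.70 (without ELOF1 day 7 replicate 2) to 1.80, and its paired sign test gave an exact p of 0.125. The fly to mouse difference ranged from -0.12 to 0.029, positive only without vector day 1.5 replicate 3. The mitochondrial rRNA difference ranged from -0.0311 to 0.0676 percentage points, negative without vector day 1.5 replicate 3 (-0.0311) or 4 (-0.0164), and was -0.0827 in ELOF1 libraries alone. Elof1, not called, ranged from -0.33 to 0.15 and turned positive in 4 of these fits, at 0.093, 0.018, 0.15 and 0.014. The MHC class II list gave 1 call, a fall, with fly scaling, all 16 libraries and 7 of 8 left-out libraries, and the cytokine list 2 calls, both rises, without the replicate block. The causes were not tested. With 4 residual degrees of freedom, a gene that was not called is not shown to be equal.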
